A study of Mus musculus with 6 samples.

Results

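The genes described here encode the secreted and membrane-bound zinc proteases of the matrix metalloprotease (MMP), ADAM and ADAMTS families, the ADAMTS-like proteins and the tissue inhibitors of metalloproteases (TIMPs). They were chosen by name, as the protein-coding genes whose symbol begins with Mmp, Adam, Adamts, Adamtsl or Timp followed by a number. This gave 83 of the 34285 genes in the deposited tables, namely 33 Adam, 22 Mmp, 19 Adamts, 5 Adamtsl and 4 Timp genes. RNA was sequenced from postmitotic neurons of the mouse cortex at embryonic stage E14.5, in 3 mutant libraries (Rp58-/-) and 3 control libraries (Rp58+/+). Rp58, whose current symbol is Zbtb18, encodes a zinc finger protein that represses transcription. The labels describe the cells as neurons, name no further allele or treatment, and give neither how the neurons were isolated nor whether the libraries came from separate embryos, so the p-values below measure the spread between these libraries, which may be technical.

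MMPs cut proteins of the extracellular matrix and also other secreted and cell-surface proteins, and are made as inactive precursors. ADAMs sit in the membrane and release the outer parts of other membrane proteins, such as Notch receptors and the amyloid precursor protein, although some members have no active protease site and serve in adhesion. ADAMTS proteases are secreted and cut proteoglycans of the brain matrix and the ends of procollagens, and TIMPs hold these proteases in check by filling the active site.

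The libraries held between 34645505 and 75892649 estimated counts. They fell into 2 library types by the length that the authors' tool subtracted from each transcript. It was exactly 249 bases in mutants 1 and 2 and control 1 (fixed-length libraries) and between 133.7 and 139.2 bases in mutant 3 and controls 2 and 3 (estimated-length libraries). The types cross the genotypes unevenly, so genotypes were compared with a term for library type. The fit without that term is given beside each member whose call it changes. It is also given, as a count or by gene, for each list that held a called gene. The common biological coefficient of variation was 0.186 with the term and 0.701 without it. Zbtb18 itself had 46.7, 45.7 and 538 normalized counts (CPM, scaled to library size) in mutants 1, 2 and 3, against 1902, 1587 and 1697 CPM in controls 1, 2 and 3. The fall passed the test with the library type term (log2 fold change -3.48 ± 0.81, edgeR adjusted p = 0.0337) and not without it (0.40). Mutant 3 kept 32.8% of the level of the controls of its type, whereas mutants 1 and 2 kept 2.45% and 2.40%, so the files do not settle whether the label of mutant 3 is right, and values of mutant 3 and of the estimated-length comparison are those of a library labelled mutant. The counts of called members and of all called genes are therefore also given without mutant 3. Those of the gene lists, the markers and the transcript models are not. Of 24 markers of endothelial, mural, meningeal and microglial cells, which are sources of metalloproteases in brain tissue, the highest value in any library was 1.59 CPM. The summed levels of those lists were 1.01 to 3.83 CPM in mutants and 0.382 to 1.33 CPM in controls for endothelial markers, 1.24 to 2.53 CPM in mutants and 0.986 to 3.51 CPM in controls for mural markers, and 1.35 to 1.94 CPM in mutants and 0.699 to 1.66 CPM in controls for meningeal markers. Microglial markers summed to 0.791 to 2.41 CPM in mutants and 1.47 to 2.06 CPM in controls. The 6 pan-neuronal markers summed to 4734 to 7265 CPM in mutants and 5897 to 8801 CPM in controls. With the library type term 3 of them fell at an edgeR adjusted p under 0.05, against 7.01% of all genes tested. Without the term 0 of them passed, and with the term DESeq2 called 5 and limma on TPM called 1.

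Of the 83 genes, 50 passed the filter on low counts and were tested. Among them 19 differed between mutant and control neurons at an adjusted p under 0.05 (quasi-likelihood test of edgeR, adjusted over all 16985 genes tested), against 14.9% of all genes tested. The 13 that rose compare with 7.92% of all genes that rose, and the 6 that fell with 7.01%. The median log2 fold change was 0.24 over the 50 members and -0.00081 over all genes tested, and the median absolute log2 fold change was 0.58 and 0.26. A fold of at least 4 together with a passed test was seen for 9 members, against 3.14% of all genes. Mutant and control libraries did not overlap for 17 of the 50 members, against 15.4% of all genes tested. In 11 members each mutant library was higher (8.8% of all genes) and in 6 each was lower (6.64%), and 16 of these 17 were among the 19 called. Without the library type term 7 members were called, against 2.36% of all genes. Of these 5 rose (Mmp2, Timp3, Adamts5, Adamts7 and Adamtsl2; 1.59% of all genes rose in that fit) and 2 fell (Mmp17 and Adamts17; 0.765% of all genes fell). Of the 19, Adamts13 passed the filter through its control libraries alone. Without Adamts13 there were 18 called members, 5 that fell and 8 with a fold of at least 4. Without mutant 3, 15 members were called, against 8.9% of all genes in that fit. In RNA from many neurons, fewer cells that express a gene and less of its RNA per cell cannot be told apart.

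**Figure D1:**
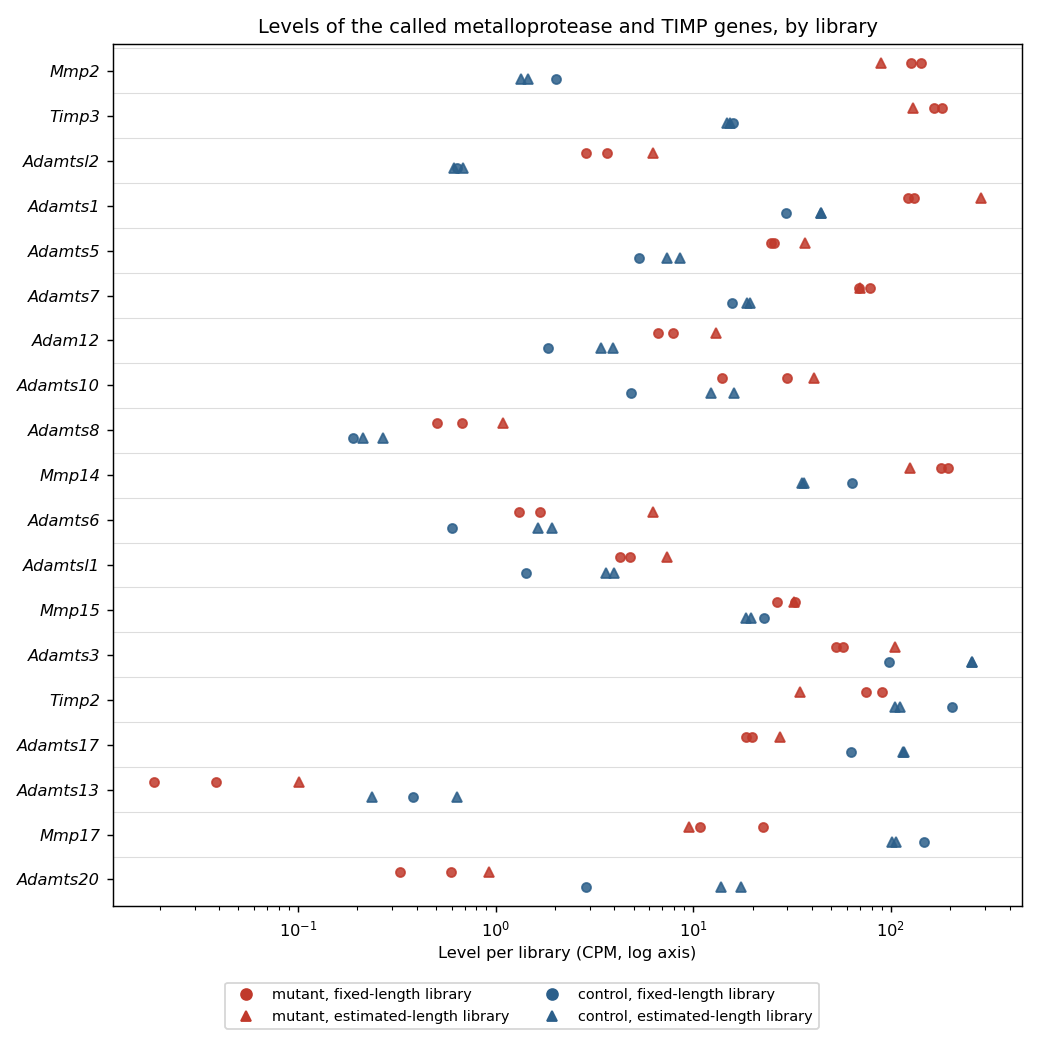
Levels of the 19 called genes in each of the 6 libraries, in CPM on a log axis, with mutants in red, controls in blue, circles for fixed-length and triangles for estimated-length libraries. Mmp2 and Timp3 show the widest gaps among the genes that rose, with mutant libraries at 89.8 to 142 and 129 to 182 CPM, against control libraries at 1.35 to 2.03 and 14.8 to 16.0 CPM.

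Of the 4 inhibitor genes Timp3 rose and Timp2 fell. Timp3, whose protein binds to the matrix and inhibits ADAM and ADAMTS proteases as well as MMPs, had 166, 182 and 129 CPM in mutants 1, 2 and 3, against 16.0, 15.3 and 14.8 CPM in controls 1, 2 and 3. Every mutant library was far above every control library, and the control values lay close together. The rise was 9.62-fold (log2 fold change 3.27 ± 0.11, standard error; edgeR adjusted p = 2.38e-05), and Timp3 was also called without the library type term (edgeR adjusted p = 0.00302). Timp2, which inhibits MMPs and also takes part with MMP14 in the activation of the MMP2 precursor, had 90.1, 75.3 and 35.0 CPM in mutants, against 204, 105 and 112 CPM in controls. The highest Timp2 value among the mutants was below the lowest among the controls, and within each library type the mutant values were lower. Timp2 fell 2.77-fold (log2 fold change -1.47 ± 0.12; edgeR adjusted p = 0.000451), and this call was lost without the library type term (edgeR adjusted p = 0.528).

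Timp1 and Timp4 were scarce and did not pass the test. Timp1 ranged from 0.0561 to 0.425 CPM in mutants and from 0.0318 to 0.447 CPM in controls (log2 fold change 0.31 ± 0.39, edgeR adjusted p = 0.714; -0.35 without the library type term). Timp4 ranged from 0.0374 to 1.26 CPM in mutants and from 0.0954 to 1.55 CPM in controls (log2 fold change -0.22 ± 0.33, edgeR adjusted p = 0.723). The make-up of the inhibitor transcripts therefore differed between the genotypes. On the length-corrected TPM scale (transcript abundance scaled to the library), Timp3 made up 58.6%, 64.7% and 71.9% of all Timp TPM in mutants 1, 2 and 3, against 5.70%, 15.0% and 12.3% in controls 1, 2 and 3. Timp2 ranked the highest of the 83 members by TPM in each control library, and took ranks 7, 7 and 12 in mutants 1, 2 and 3. Timp3 took ranks 4, 3 and 3 in the mutants and ranks 19, 17 and 18 in the controls. In the annotation 21.3% of the exonic bases of Timp3 lie on the strand opposite to exons of Syn3, a synapsin gene whose intron holds Timp3. The kit keeps strand, but no source used here gives the strand setting of the counting. Syn3 had 10.8, 12.9 and 23.0 CPM in mutants and 6.20, 20.1 and 19.9 CPM in controls, which was below Timp3 in the 3 mutant libraries and in control 1 and above Timp3 in controls 2 and 3. Syn3 was not called (edgeR adjusted p = 0.108).

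Among the MMPs, Mmp2 and 2 membrane-type genes rose and 1 membrane-type gene fell. Mmp2, a secreted gelatinase that cuts basement membrane collagen, had 142, 127 and 89.8 CPM in mutants, against 2.03, 1.46 and 1.35 CPM in controls. It was scarce in each control library and among the most abundant members in each mutant library. The rise of 63.1-fold (log2 fold change 5.98 ± 0.10; edgeR adjusted p = 5.28e-06) had the smallest p of the 50 members tested. The log2 fold change was 6.01 within the fixed-length and 5.95 within the estimated-length libraries, and 6.18 without the library type term (edgeR adjusted p = 0.00243). The other gelatinase gene, Mmp9, ranged from 0.121 to 0.405 CPM in mutants and from 0.254 to 0.355 CPM in controls and was not called (log2 fold change -0.46 ± 0.46, edgeR adjusted p = 0.564).

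Mmp14 encodes the membrane-type protease MT1-MMP, which activates the MMP2 precursor at the cell surface. It had 196, 179 and 125 CPM in mutants, against 63.9, 36.3 and 35.5 CPM in controls, with no overlap, and control 1 was higher than the other two controls. Mmp14 rose 3.20-fold (log2 fold change 1.68 ± 0.09; edgeR adjusted p = 0.000101), with an adjusted p of 0.0507 in edgeR without the library type term. Mmp15, another membrane-type MMP with a transmembrane anchor, had 32.6, 26.7 and 32.2 CPM in mutants, against 22.9, 19.6 and 18.4 CPM in controls. These groups did not overlap but lay close, and the rise of 1.48-fold (log2 fold change 0.57 ± 0.13; edgeR adjusted p = 0.0294) was lost without the library type term (edgeR adjusted p = 0.257) and without mutant 3 (edgeR adjusted p = 0.231), mutant 1 (0.0814), control 2 (0.109) or control 3 (0.103). Mmp17, which is held to the membrane by a lipid anchor, went the other way, with 22.6, 10.8 and 9.58 CPM in mutants, against 148, 106 and 101 CPM in controls. It fell 9.75-fold (log2 fold change -3.28 ± 0.28; edgeR adjusted p = 0.000582), with each mutant library well below each control library.

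Mmp24, the most abundant of the uncalled MMPs, had 152, 131 and 94.3 CPM in mutants and 131, 86.8 and 85.5 CPM in controls, and the groups overlapped (log2 fold change 0.12 ± 0.09, edgeR adjusted p = 0.405). Mmp16 differed by library type and was not called (edgeR adjusted p = 0.485), with 14.9 and 16.5 CPM in mutants 1 and 2 and 16.8 CPM in control 1, and with 72.3 CPM in mutant 3 and 77.7 and 76.4 CPM in controls 2 and 3. Among all 16985 genes tested, DESeq2 called 4039 and limma on TPM called 1336. Of the secreted MMPs outside the gelatinases, 5 of 14 were tested and 0 called by edgeR, with 1 of these 5 at an unadjusted p under 0.05, 1 called by DESeq2 and 0 by limma on TPM. The member of that class with the highest TPM, Mmp11, had 16.8, 20.4 and 8.99 CPM in mutants and 10.5, 6.68 and 7.44 CPM in controls (log2 fold change 0.58 ± 0.17; edgeR adjusted p = 0.0688), and DESeq2 called it (adjusted p = 0.0122).

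Read within each library, the MMP transcripts changed their make-up. Mmp2 and Mmp14 together made up 67.2%, 67.7% and 53.9% of all Mmp TPM in mutants 1, 2 and 3, against 22.9%, 14.0% and 14.1% in controls 1, 2 and 3. Mmp17 made up 3.49%, 1.86% and 1.88% of Mmp TPM in the mutants, against 37.5%, 29.2% and 28.6% in the controls. Among the 83 members, Mmp2 took TPM ranks 2, 2 and 4 in the mutants and 26, 39 and 39 in the controls. Mmp17 took ranks 13, 23 and 28 in the mutants and 2, 3 and 4 in the controls.

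**Figure D2:**
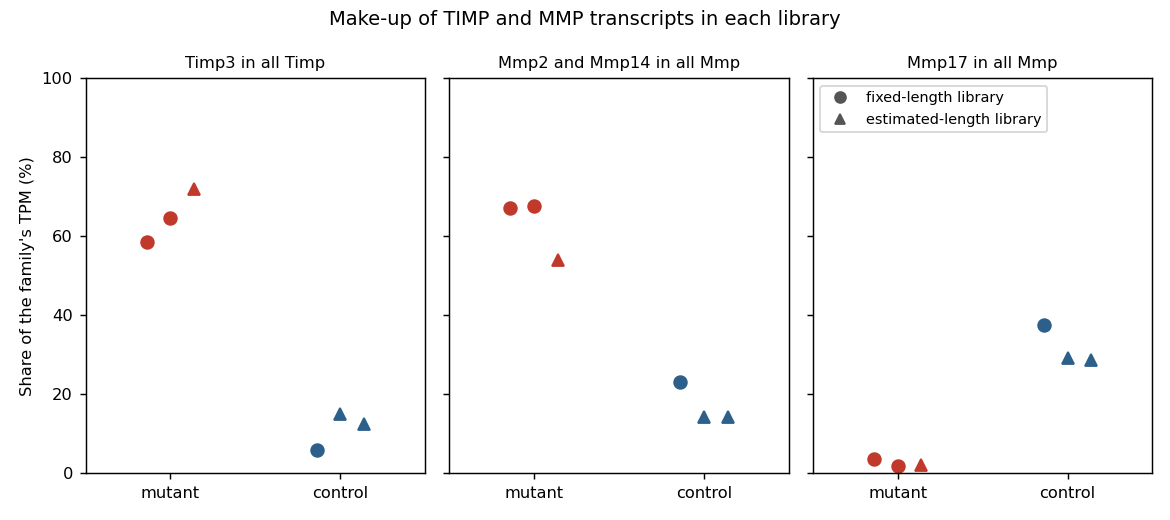
Share of the summed TPM of a family, in percent, taken by Timp3 (left), by Mmp2 and Mmp14 together (middle) and by Mmp17 (right), 1 point per library, with mutants left of controls and circles for fixed-length and triangles for estimated-length libraries. Timp3 lies at 58.6% to 71.9% in mutants and at 5.70% to 15.0% in controls.

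Of the 14 ADAM genes tested, 1 was called, against 14.9% of all genes. Adam12, a sheddase of growth factors and a protease of their binding proteins, had 6.64, 7.93 and 13.1 CPM in mutants, against 1.84, 3.93 and 3.41 CPM in controls. Mutant values were higher within both library types, and Adam12 rose 3.69-fold (log2 fold change 1.88 ± 0.17; edgeR adjusted p = 0.000822; 0.185 without the library type term). Adam10, the main sheddase of Notch receptors and of the amyloid precursor protein in the brain, had the highest mean TPM of the ADAMs. It had 148, 135 and 95.1 CPM in mutants and 109.8, 79.7 and 86.8 CPM in controls (log2 fold change 0.28 ± 0.09; edgeR adjusted p = 0.0875). The groups overlapped, and Adam10 was called by DESeq2 (adjusted p = 0.0425) and without mutant 2 (edgeR adjusted p = 0.0490). Adam17, the sheddase of tumor necrosis factor, had 22.9, 25.1 and 29.5 CPM in mutants and 20.6, 25.0 and 25.0 CPM in controls (log2 fold change 0.23 ± 0.08, edgeR adjusted p = 0.120). Adam9, Adam15, Adam19, Adam8 and Adam33 were not called either, with log2 fold changes between -0.26 and 0.72.

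The genes of the protease-dead ADAMs, which bind LGI proteins and organize synapses, were tested and not called. Adam22 had 51.9, 60.0 and 120.4 CPM in mutants and 51.4, 125 and 95.0 CPM in controls (log2 fold change 0.12 ± 0.13, edgeR adjusted p = 0.570; -0.23 without the library type term). Adam23 and Adam11 had log2 fold changes of 0.25 ± 0.16 and -0.16 ± 0.25, at edgeR adjusted p-values of 0.349 and 0.725. These pooled values combine estimates whose signs differed between the library types. The log2 fold change of Adam23 was 0.59 within the fixed-length and -0.06 within the estimated-length libraries. That of Adam11 was 0.31 and -0.63. None of these estimates was called within its type. The difference between the types was not called either (edgeR unadjusted p = 0.0146 and 0.0262, adjusted p = 0.486 and 0.596 for Adam23 and Adam11). Of the 21 remaining ADAMs, many of which are known from the testis, 3 were tested. Their highest member by TPM, Adam1a, had 2.07, 4.12 and 4.15 CPM in mutants and 2.45, 4.17 and 3.96 CPM in controls (log2 fold change 0.18 ± 0.30, edgeR adjusted p = 0.752; -0.034 without the library type term). Its counts are uncertain, since 63.7% of its exonic bases are shared with another annotated gene on the same strand.

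The ADAMTS family held the most calls, 10 of 16 tested, against 14.9% of all genes. In it 6 genes rose, against 7.92% of all genes, and 4 fell, against 7.01%. The 4 include Adamts13, which passed the filter through its control libraries alone. Of the 7 genes whose proteins cut the lecticans, the large proteoglycans of the brain matrix, Adamts1, Adamts5 and Adamts8 rose and Adamts20 fell. Adamts1 had 123, 131 and 287 CPM in mutants, against 29.7, 44.2 and 44.6 CPM in controls. It was the member with the highest TPM in mutant 3, and rose 5.27-fold (log2 fold change 2.40 ± 0.14; edgeR adjusted p = 0.000123; 0.0652 without the library type term). Its log2 fold change was 2.10 within the fixed-length and 2.69 within the estimated-length libraries, a difference with an unadjusted p of 0.0116 and an edgeR adjusted p of 0.465. Adamts5, an aggrecan-cutting protease, had 24.9, 25.7 and 36.8 CPM in mutants, against 5.34, 7.34 and 8.60 CPM in controls. The values within each genotype were close and the groups far apart, for a rise of 4.66-fold (log2 fold change 2.22 ± 0.11; edgeR adjusted p = 7.01e-05). Adamts1 and Adamts5 lie next to each other on chromosome 16, on the same strand, and were the only called pair among 20 pairs of neighbouring members, of which 2 had both genes tested.

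Adamts8 was scarce, with 0.675, 0.505 and 1.09 CPM in mutants, against 0.191, 0.268 and 0.213 CPM in controls. Its rise of 3.44-fold (log2 fold change 1.78 ± 0.31; edgeR adjusted p = 0.0105) was lost without the library type term (edgeR adjusted p = 0.388), without mutant 3 (edgeR adjusted p = 0.150), without control 2 (0.0717) and without control 3 (0.0720). Adamts20, which in mice cuts versican and is needed for melanoblast survival, had 0.328, 0.599 and 0.931 CPM in mutants, against 2.86, 13.8 and 17.5 CPM in controls. The 2 estimated-length controls were far above control 1, and the mutant libraries were lower than the controls in both types. Adamts20 fell 9.83-fold (log2 fold change -3.30 ± 0.41; edgeR adjusted p = 0.00269), and its adjusted p was 0.0728 without the library type term. Its log2 fold change was -2.52 within the fixed-length and -4.01 within the estimated-length libraries. That difference was not called (edgeR unadjusted p = 0.0406, adjusted p = 0.651).

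Adamts4, the other well known aggrecan-cutting protease, behaved differently in the library types. In the fixed-length libraries mutants 1 and 2 had 5.77 and 5.85 CPM and control 1 had 1.91 CPM. In the estimated-length libraries mutant 3 had 14.2 CPM and controls 2 and 3 had 25.6 and 23.4 CPM. Within the fixed-length libraries its log2 fold change was 1.59 (edgeR adjusted p = 0.00756), and within the estimated-length libraries it was -0.79 (edgeR adjusted p = 0.0520). The difference between the types had an unadjusted p of 0.00012 and an edgeR adjusted p of 0.0703, so Adamts4 was not called for it, and over both types its log2 fold change was 0.27 ± 0.52 (edgeR adjusted p = 0.779). Adamts9 and Adamts15 had log2 fold changes of 0.25 and 0.61 and were not called.

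Of the 3 procollagen N-propeptidases, which trim fibrillar procollagens, Adamts3 fell. ADAMTS3 is also known to cut reelin, the guidance protein of cortical layering. Adamts3 had 53.0, 57.6 and 106 CPM in mutants, against 97.7, 259 and 259 CPM in controls, so that mutant 3 lay above control 1, while within each library type every mutant was lower. The fall was 2.08-fold (log2 fold change -1.06 ± 0.12; edgeR adjusted p = 0.00207; 0.307 without the library type term). The log2 fold change of Adamts3 was -0.82 within the fixed-length and -1.29 within the estimated-length libraries. That difference was not called (edgeR unadjusted p = 0.0383, adjusted p = 0.641). Adamts2 and Adamts14 were not called, with log2 fold changes of 0.79 ± 0.28 and -0.75 ± 0.32.

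In the rest of the family, Adamts7, Adamts10 and Adamts6 rose and Adamts17 and Adamts13 fell. Adamts7, which cuts cartilage oligomeric matrix protein, had 69.1, 79.0 and 70.2 CPM in mutants, against 15.7, 19.4 and 18.6 CPM in controls. It varied little within either genotype and rose 4.15-fold (log2 fold change 2.05 ± 0.11; edgeR adjusted p = 0.000107; 0.00495 without the library type term). Adamts10 and Adamts6, whose proteins act on fibrillin microfibrils, overlapped between the genotypes. Adamts10 had 14.0, 29.9 and 40.8 CPM in mutants, against 4.83, 12.4 and 16.2 CPM in controls (log2 fold change 1.82 ± 0.33; edgeR adjusted p = 0.0138), and its call was lost without the library type term (edgeR adjusted p = 0.549) and without mutant 3 (edgeR adjusted p = 0.0583), control 1 (0.104) or control 2 (0.0525). Adamts6 had 1.31, 1.68 and 6.26 CPM in mutants, against 0.604, 1.64 and 1.94 CPM in controls (log2 fold change 1.56 ± 0.24; edgeR adjusted p = 0.00657), and its call was lost without the library type term (edgeR adjusted p = 0.980) and without mutant 3 (edgeR adjusted p = 0.114).

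Adamts17, a relative of Adamts10 that is linked to eye and bone development, had 19.8, 18.6 and 27.5 CPM in mutants, against 62.8, 117 and 116 CPM in controls. It fell 3.71-fold with no overlap (log2 fold change -1.89 ± 0.11; edgeR adjusted p = 0.000108; 0.0311 without the library type term). Adamts13, the protease of von Willebrand factor, had 0.0386, 0.0187 and 0.101 CPM in mutants, against 0.382, 0.238 and 0.640 CPM in controls. It passed the filter on low counts through the control libraries, and its fall (log2 fold change -2.14 ± 0.53; edgeR adjusted p = 0.0415) was lost without the library type term (edgeR adjusted p = 0.351) and without control 1 (edgeR adjusted p = 0.349), control 3 (0.149), mutant 1 (0.113), mutant 2 (0.0916) or mutant 3 (0.0869). Adamts18 had 30.2, 48.0 and 38.8 CPM in mutants and 54.0, 88.3 and 99.5 CPM in controls, without overlap. It was not called (log2 fold change -0.87 ± 0.25; edgeR adjusted p = 0.0640), whereas DESeq2 called it (adjusted p = 0.00166).

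ADAMTS-like proteins have the matrix-binding repeats of the ADAMTS family without the protease. Adamtsl2, which binds fibrillin and a latent TGF-beta binding protein, had 3.67, 2.86 and 6.24 CPM in mutants, against 0.636, 0.685 and 0.616 CPM in controls. The controls were tightly grouped, and Adamtsl2 rose 6.90-fold (log2 fold change 2.79 ± 0.28; edgeR adjusted p = 0.00105; 0.0364 without the library type term). Adamtsl1 had 4.28, 4.81 and 7.39 CPM in mutants, against 1.43, 3.97 and 3.62 CPM in controls, and rose 2.41-fold (log2 fold change 1.27 ± 0.23; edgeR adjusted p = 0.0130). Its lowest mutant value was close to its highest control value, and the call was lost without the library type term (edgeR adjusted p = 0.798) and without control 1 (edgeR adjusted p = 0.0649) or control 3 (0.0517). Adamtsl3 had 0.540, 1.12 and 2.21 CPM in mutants and 1.81, 29.3 and 8.22 CPM in controls. Control 2 stood far above the other two controls, and Adamtsl3 was not called (log2 fold change -2.16 ± 0.74; edgeR adjusted p = 0.103).

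**Figure D3:**
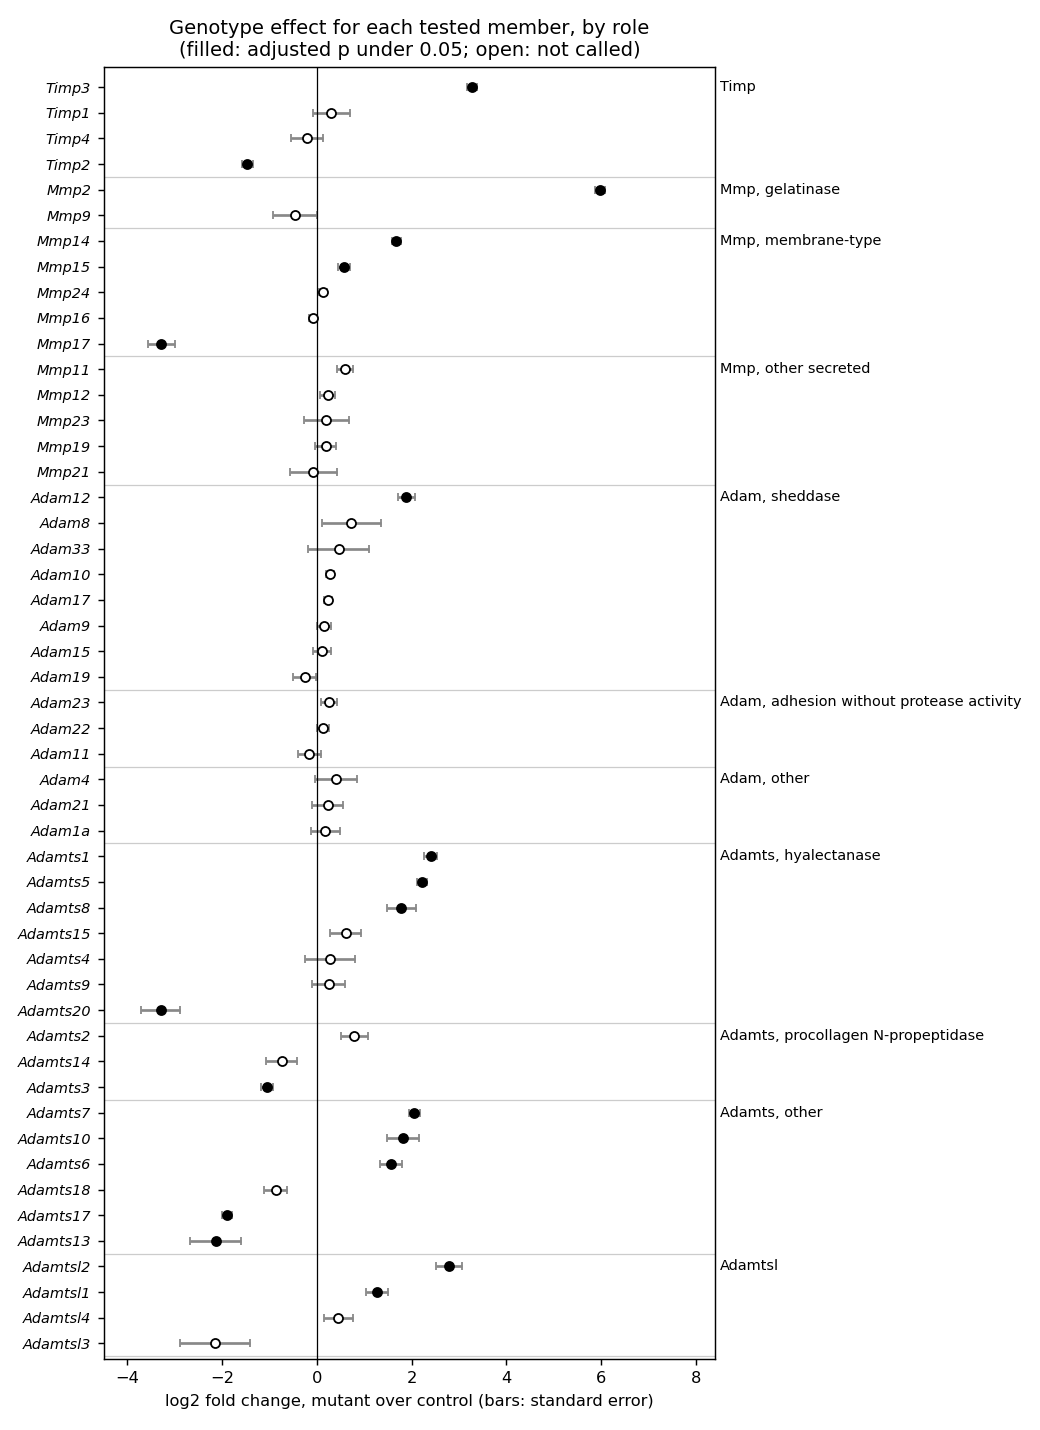
Log2 fold change of mutant over control, with the standard error as bars, for the 50 tested members grouped by role. Filled points passed an adjusted p of 0.05 in edgeR with the library type term, and Mmp2 at 5.98 and Adamts20 at -3.30 mark the ends of the range.

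The 33 members that were not tested had at most 0.668 CPM in any library, and Adam28 had no count in any of the 6 libraries, which allows up to 0.0570 to 0.0931 CPM in a library (3 counts, counting error only). Most of the genes in the Mmp cluster on chromosome 9 and in the Adam clusters on chromosome 8 were among them. Adamts16 was 1 of 2 untested members whose groups did not overlap, with 0.154, 0.355 and 0.344 CPM in mutants and 0, 0 and 0.0948 CPM in controls, and Mmp28 the other, with 0.0386 to 0.0810 CPM in mutants and 0 to 0.0318 CPM in controls. With no filter on low counts Adamts16 was called (log2 fold change 2.42, edgeR adjusted p = 0.0290).

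The genotype effects were next set side by side for the library types, in a fit whose spread was pooled, since each type holds a single library of 1 genotype. Within the fixed-length libraries 15 members were called, against 9.46% of all genes, and within the estimated-length libraries 16, against 7.92%. In both types 13 were called, against 5.91% of all genes. All 19 called members had the same direction in both. They were called from these same 6 libraries with both types fitted together, which favours genes with a shared direction. The shared direction is therefore not separate support for the calls. The difference between the types was called in edgeR for 0 of the 50 members, against 0.153% of all genes, and 6 members had an unadjusted p under 0.05, against 7.19% of all genes. When each of the 6 libraries was left out in turn, 13 members were called in every fit, against 5.56% of all genes. These were Mmp2, Mmp14, Mmp17, Timp2, Timp3, Adam12, Adamts1, Adamts3, Adamts5, Adamts7, Adamts17, Adamts20 and Adamtsl2.

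**Figure D4:**
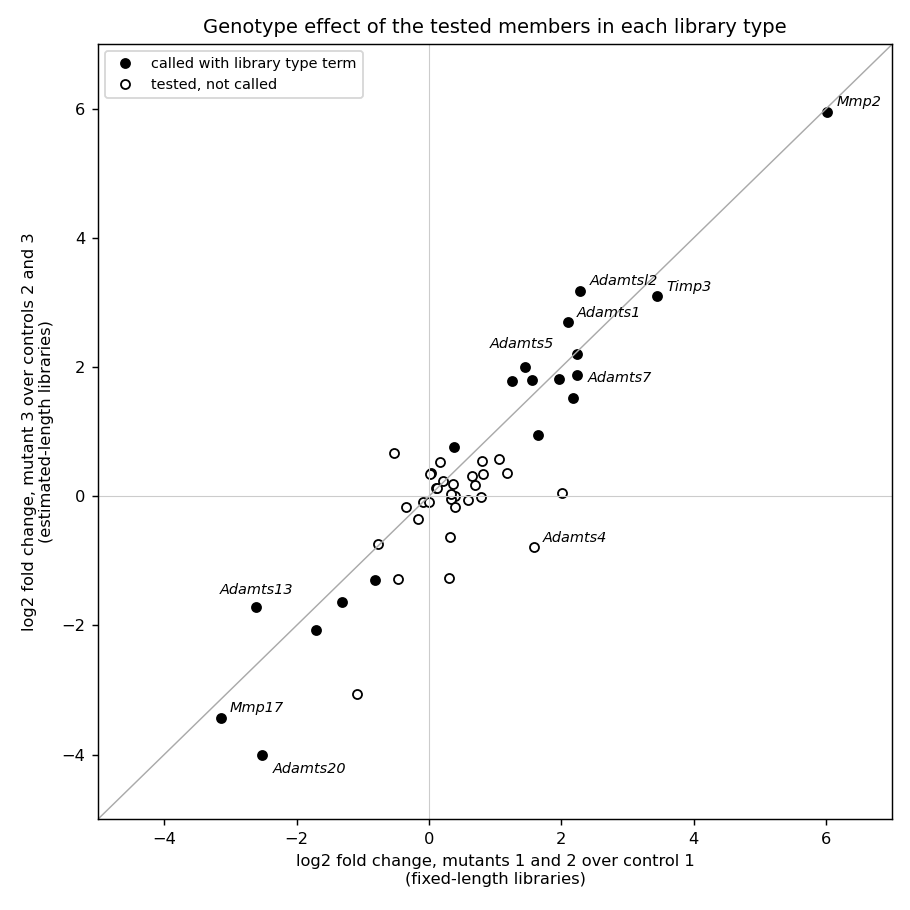
Log2 fold change of mutants 1 and 2 over control 1 (horizontal, fixed-length libraries) against that of mutant 3 over controls 2 and 3 (vertical, estimated-length libraries) for the 50 tested members, with called genes filled and the diagonal marking equal effects. The 19 called genes, which were called by the fit over both types, lie in the lower left and upper right quadrants. Adamts4 lies at 1.59 and -0.79.

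The 83 genes had 295 transcript models in the tables. On single models, whose shared reads kallisto divides by estimate, 112 were tested and 12 were called by edgeR, 8 higher and 4 lower in mutants, against 1.74% of all models. Without the library type term 0 models were called by edgeR, with 19 at an unadjusted p under 0.05. The models Mmp2-201, Mmp14-201, Mmp17-201 and Adamts5-201 each held all counts of their gene in the controls. Timp3-201 held 99.9%, 99.6% and 94.2% of the Timp3 counts in mutants, against 99.6%, 77.7% and 79.8% in controls, with a log2 fold change of 3.44 ± 0.09 (edgeR adjusted p = 0.00102). For Adamts7 the called model was Adamts7-204, annotated as a target of nonsense-mediated decay. It held 9.02%, 5.89% and 13.6% of the Adamts7 counts in mutants, against 6.48%, 9.01% and 6.10% in controls.

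Promoter sequence was read from RefSeq (build GRCm38.p6) for Timp3, Mmp14 and Timp2, because these changed between the genotypes and were among the members with the highest TPM in mutants or in controls. Each sequence is the 250 bases before the annotated gene start, 5′ to 3′ on the strand of the gene. Timp3 lies at chr10:86300162-86300411 on the plus strand, Mmp14 at chr14:54431348-54431597 on the plus strand and Timp2 at chr11:118355412-118355661 on the minus strand. Capitals mark the letters CATCTG or their reverse complement CAGATG.
Timp3: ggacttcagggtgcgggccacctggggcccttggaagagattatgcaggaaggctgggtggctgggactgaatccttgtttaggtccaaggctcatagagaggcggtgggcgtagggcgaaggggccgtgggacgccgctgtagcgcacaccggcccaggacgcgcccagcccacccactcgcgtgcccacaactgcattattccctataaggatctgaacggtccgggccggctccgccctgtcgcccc
Mmp14: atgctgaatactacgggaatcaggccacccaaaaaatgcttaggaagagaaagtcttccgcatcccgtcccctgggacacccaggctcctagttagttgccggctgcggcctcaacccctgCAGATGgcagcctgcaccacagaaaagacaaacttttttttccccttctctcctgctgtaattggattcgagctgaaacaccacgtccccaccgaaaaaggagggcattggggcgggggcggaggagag
Timp2: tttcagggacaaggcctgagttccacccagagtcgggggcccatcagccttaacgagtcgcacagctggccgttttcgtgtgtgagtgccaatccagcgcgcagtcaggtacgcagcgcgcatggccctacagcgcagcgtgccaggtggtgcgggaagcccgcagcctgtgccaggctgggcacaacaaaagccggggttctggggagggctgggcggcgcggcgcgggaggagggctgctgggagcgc

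These windows had 65.6%, 55.2% and 68% G and C bases and 18, 10 and 21 CpG pairs for Timp3, Mmp14 and Timp2. The known binding site of the RP58 protein holds the letters ACATCTG, which were searched on both strands in windows of 300 bases (250 before and 50 after the start). They occurred in 4.43% of the 32851 RefSeq promoters and in 4 of the 57 promoters of members. Some members have more than 1 promoter. By gene, the letters occurred in 4 of the 52 members with a RefSeq promoter (Adam20, Adam25, Adamts2 and Mmp25). Of the 10 called members with such a promoter, 0 held them. The shorter CATCTG, which ACATCTG contains and which was added after the first search, occurred in 17.2% of all promoters and in 9 of the 57 promoters of members. These belonged to 8 of the 52 member genes and to 1 of the 10 called members, Mmp14, at 129 bases before the start. A match is a description of the letters in this window.

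Genes that act on, with or under these proteases were read as lists, whose counts of calls stand beside 14.9% of all genes called with the library type term (7.92% higher and 7.01% lower) and 2.36% without it. Counts by the other tools stand beside 4039 of the 16985 genes called by DESeq2 and 1336 by limma on TPM. Of 12 genes whose proteins move or mature ADAM10 and ADAM17, 11 were tested and 2 called: Tspan5, a tetraspanin that carries ADAM10, fell (68.6 to 101 CPM in mutants, 99.0 to 149.6 CPM in controls; log2 fold change -0.56, edgeR adjusted p = 0.00278), and Rhbdf1, an inactive rhomboid that serves ADAM17, rose (1.54 to 3.35 CPM in mutants, 0.159 to 1.11 CPM in controls; 2.46, edgeR adjusted p = 0.0366). Neither was called without the term (edgeR adjusted p = 0.991 and 0.425), and the list median was 0.0036. The most abundant of these by TPM, the tetraspanin gene Tspan14, was not called (log2 fold change 0.25, edgeR adjusted p = 0.137). Of 7 genes for gamma-secretase, the protease that acts after an ADAM cut, 0 were called by edgeR with or without the library type term, with 1 at an unadjusted p under 0.05, 1 called by DESeq2 and 0 by limma on TPM. The gene with the highest TPM, Psenen, had a log2 fold change of -0.27 (edgeR adjusted p = 0.0992).

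Of 31 genes tested for membrane proteins that ADAMs or MMPs shed, 16 were called, 9 higher and 7 lower, with a list median of 0.08, and 1 was called without the library type term. Alcam, an adhesion molecule shed by ADAM17, had 6.14, 6.75 and 8.32 CPM in mutants, against 179, 275 and 309.6 CPM in controls (log2 fold change -4.95, edgeR adjusted p = 8.33e-06). Robo1 and Robo2, receptors of Slit guidance proteins, fell by 1.97 and 1.41 on the log2 scale (edgeR adjusted p = 6.82e-05 and 0.000837). The most abundant, Aplp1, a relative of the amyloid precursor protein, was not called (log2 fold change 0.11, edgeR adjusted p = 0.537). Of 8 tested genes for LGI ligands and partners of ADAM22, 3 were called, all lower in mutants, with a median of -0.38, and 1 was called without the library type term and 1 by limma on TPM. Dlg2, a synaptic scaffold, had 3.49, 2.66 and 3.62 CPM in mutants, against 36.2, 60.8 and 57.8 CPM in controls (log2 fold change -3.77, edgeR adjusted p = 5.12e-05), and the potassium channel gene Kcna1 and the scaffold gene Dlg4 fell by 0.97 and 0.62 on the log2 scale (edgeR adjusted p = 0.0243 and 0.0108).

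Of 23 tested matrix substrates, 11 were called, 6 higher and 5 lower, with a median of 0.23, and 3 were called without the library type term. Col5a1, a chain of a fibrillar collagen, had 49.3, 61.5 and 101 CPM in mutants, against 2.16, 6.01 and 4.69 CPM in controls (log2 fold change 4.39, edgeR adjusted p = 4.08e-05). Fn1, fibronectin, had 3.90, 6.38 and 4.11 CPM in mutants, against 25.4, 28.0 and 34.9 CPM in controls (log2 fold change -2.60, edgeR adjusted p = 0.000979), and Lamb1, a laminin chain, fell by 1.45 on the log2 scale (edgeR adjusted p = 0.000393). The most abundant substrate, the lectican Ncan, was not called (log2 fold change -0.09, edgeR adjusted p = 0.613). Of the activating convertases 1 of 9 was called, with or without the library type term, with Pcsk2 at 5.61 to 10.7 CPM in mutants and 29.2 to 37.9 CPM in controls (log2 fold change -1.97, edgeR adjusted p = 0.00101). Of 7 tested genes of the plasminogen system 0 were called by edgeR with or without the library type term, with 3 at an unadjusted p under 0.05, 1 called by DESeq2 and 0 by limma on TPM. The medians of these lists were 0.10 and 0.18, and their most abundant genes, Mbtps1 for the site-1 protease and Serpini1 for neuroserpin, had log2 fold changes of 0.25 and -0.28 (edgeR adjusted p = 0.0846 and 0.156).

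Among 14 tested relatives in the wider zinc protease group, 5 were called, 4 higher and 1 lower, with a median of 0.20, and 1 was called without the library type term. Pappa, which frees insulin-like growth factors from a binding protein, had 18.5, 16.7 and 39.4 CPM in mutants, against 0, 0.149 and 0.237 CPM in controls (edgeR adjusted p = 5.88e-05). Its relative Pappa2 had 5.58, 4.79 and 14.9 CPM in mutants, against 17.0, 48.7 and 44.3 CPM in controls (log2 fold change -1.67, edgeR adjusted p = 0.00016), so this pair moved in opposite directions. Tll1, a procollagen C-proteinase, rose by 1.88 on the log2 scale (edgeR adjusted p = 0.0046; 0.996 without the library type term), and the most abundant, Nrd1 for nardilysin, had a log2 fold change of -0.05. Of 13 further inhibitors 1 was called, with or without the library type term, with a list median of 0.14: Spock2, a proteoglycan that modulates MMP activity, had 269, 222 and 143 CPM in mutants, against 53.4, 37.3 and 37.1 CPM in controls (log2 fold change 2.07, edgeR adjusted p = 0.000101). The protease inhibitor gene with the highest TPM in that list, Cst3, had a log2 fold change of -0.05 (edgeR adjusted p = 0.791).

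Markers of other cells were read beside these values. Of the endothelial, mural, meningeal and microglial lists, 2, 4, 3 and 2 of 6 markers each passed the filter, and Kdr and Cspg4 were called, both higher in mutants. Kdr, a receptor of endothelial cells, had 0.695, 0.486 and 1.58 CPM in mutants, against 0.0636, 0.402 and 0.261 CPM in controls (edgeR adjusted p = 0.00761; 0.640 without the library type term). Cspg4, a pericyte and oligodendrocyte precursor proteoglycan, had 0.386, 0.524 and 1.07 CPM in mutants, against 0.0636, 0.372 and 0.474 CPM in controls (edgeR adjusted p = 0.0358; 0.996 without the library type term). Radial glia markers summed to 100.4 to 211 CPM in mutants and 107 to 237 CPM in controls, but single markers differed. Of the 8 markers 6 were called, 3 higher and 3 lower, against 14.9% of all genes. Without the library type term 4 were called, against 2.36% of all genes. All 8 had an unadjusted p under 0.05 in edgeR with the term. Interneuron markers summed to 2.34 to 5.65 CPM in mutants and 0.986 to 4.72 CPM in controls. Of 5 tested 1 was called, higher in mutants (7.92% of all genes were), and 0 were called without the library type term. Erythroid markers summed to 3.67 to 9.86 CPM in mutants and 5.76 to 8.17 CPM in controls. Of these 0 of 3 tested had an unadjusted p under 0.05 in edgeR, and 0 were called by DESeq2 or limma. The part of these cells in the changes of the metalloprotease genes was not tested.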

How the data were processed

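The 83 genes, the gene lists and the design were chosen with earlier results of these data known. Per the labels, libraries came from a TruSeq stranded kit for total RNA. Kallisto, FastQC and build mm9 appear in the submitters' processing notes, without versions. The authors deposited, per the file headers, the length and effective length in bases, the estimated count and the TPM of 97251 transcripts in each library. The estimated counts were deposited without normalization, and the TPM values were scaled by the authors by effective length and total.

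Transcripts were joined to GENCODE M21 genes, used for names only. Of the transcripts, 84632 matched, and unmatched ones took 6.85% to 8.58% of counts and stayed out. Estimated counts were summed to genes, rounded and tested with edgeR 4.0.16 (R 4.3.3; TMM, filterByExpr, prior count 2, library type term) on all 6 libraries, with Benjamini-Hochberg adjustment over all genes. Library types were defined from the lengths alone, and the labels do not name them. CPM is scaled to the normalized library size. Alternatives were no type term, RLE scaling, TMM on nuclear protein-coding genes, other filters, DESeq2 1.42.0, limma 3.58.1 on log2(TPM + 0.1), and each library left out. The code of the main fit was run on simulated counts with planted fold changes and the same spread for every gene. This checks the code and not how the fit handles the spread or the differences between library types in these data. TPM values are set side by side as shares and ranks within a library, since library types differ in scale. Exceptions are limma on TPM, which had the library type term, and the mean TPM over all 6 libraries by which genes were named. Summed TPM of the members was higher in each fixed-length library, so these libraries weigh more in that mean.

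Genes named are all called members, all Timps, the member of each role with the highest mean TPM, and, from each list, up to 3 called genes with the smallest p and the one with the highest mean TPM. The other members with values (Mmp9, Mmp16, Mmp24, Mmp28, Adam8, Adam9, Adam11, Adam15, Adam17, Adam19, Adam23, Adam28, Adam33, Adamts2, Adamts4, Adamts9, Adamts14, Adamts15, Adamts16, Adamts18 and Adamtsl3) were named after their values were seen, as were Syn3, Kdr and Cspg4.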

Additional observations from a re-analysis of the deposited data

How the results depend on the processing

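With the library type term 2537 genes were called. The count was 400 without the term, 4039 with DESeq2, 1336 with limma on TPM, and 1293 to 3034 when each library was left out (1293, 1410 and 1431 without controls 1, 2 and 3, and 1549 without mutant 3). Of the members 19 were called, 7 without the term, 15 to 21 with a library left out, and 17 to 23 under the other scalings, filters and tools. Calls of single transcripts numbered 12, and 0 without the term (edgeR, 19 at an unadjusted p under 0.05). No called member changed direction under any alternative run: of 244 values for the 19, 212 kept their call and 32 missed the threshold, and 12 of those 32 came from the fit without the term. DESeq2 gave no adjusted p for Adamts13. Among uncalled genes the sign turned without the term for Adam1a (-0.034), Adam22 (-0.23) and Timp1 (-0.35), and without mutant 2 for Adam1a (-0.073; -0.073 to 0.33 over the libraries left out). The cause was not tested. Some uncalled members were called under an alternative: Adamts18 with RLE scaling, DESeq2, no filter or without mutant 2, Adamtsl3 with DESeq2 or no filter, Adamts2 with DESeq2, Mmp11 with DESeq2 or no filter, Adamts16 with no filter, and Adam10 and Adam19 without mutant 2. Adamts4 was called higher without mutant 3 (1.59) and lower without control 1 (-0.77). Limma on TPM lost Adamtsl1 (adjusted p = 0.0674) and Mmp15 (adjusted p = 0.111). RLE scaling moved the median log2 fold change of all genes to -0.03. The split of called genes was 53.1% higher, 63.2% with limma, 67.5% without the term, 43.5% with DESeq2 and 63.9% without mutant 3. The 33 untested members, at up to 0.668 CPM, are limited by depth, and of these Adamts16 was called with no filter. No paired analysis was possible because the labels give no replicate numbers that the groups share.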
